A study of Mus musculus with 18 samples.

Results

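Stretch-responsive proteins of heart muscle sit where the contractile apparatus is anchored and where its force is passed from cell to cell. The muscle ankyrin repeat proteins, encoded by Ankrd1, Ankrd2 and Ankrd23, bind the titin spring in the sarcomere and can also enter the nucleus. The Xin proteins of Xirp1 and Xirp2 bind actin filaments at the intercalated disc, and the LIM proteins of Fhl1, Fhl2, Csrp3 and Nrap join titin, the Z-disc or the disc membrane to actin and to signalling proteins. Enah encodes Mena, which lengthens actin filaments, belongs to the Ena/VASP family and is a known binding partner of the Xin proteins. Ankrd1 is widely used as a marker of a heart under mechanical load.

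These 10 genes were taken by symbol from the 38355 gene identifiers of the tables. Each symbol matched 1 identifier, and all 10 genes passed the filter on low counts that left 14876 genes for testing. Their RNA was counted in 18 left-ventricle libraries of (DBA/2J x C3HeB/FeJ)F1 mice. There were 5 cycD2 Shunt libraries, from MHC-cycD2 transgenic mice with a shunt between aorta and vena cava (volume load), and 3 cycD2 TAC libraries, from MHC-cycD2 mice with constriction of the transverse aorta (pressure load). The 5 cycD2 sham libraries came from MHC-cycD2 mice with a sham operation, and the 5 WT libraries from mice without transgene or surgery. Surgery was done at 8 weeks of age, and the time from surgery to collection is not given in the sources used here. The transgene is named for the myosin heavy chain promoter, which is active in heart muscle cells, and by the labels all 3 operated groups carry it. The library labelled cycD2 TAC replicate 2 goes against that label in its Ccnd2 level, given in the next paragraph, and the labels name no operated group without the transgene. The design counts as many mice as libraries in each group. The labels describe mice of both sexes, with a narrower needle for the aorta of females, a milder constriction than in earlier work, and sham procedures for both operations, and do not say which procedure the sham group had.

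The libraries held 19297821 to 30594075 gene counts, and every gene of the 10 except Ankrd2 had at least 2194 reads in each library, so that counting error was small beside the spread between libraries. Several features of the libraries followed the groups. The transgene's gene Ccnd2 stood at 17740 to 30480 CPM (counts scaled to library size after TMM adjustment) in the other cycD2 libraries and at 140.5 to 189 CPM in WT. The library labelled cycD2 TAC replicate 2 held 228.2 CPM, close to WT. The effect of leaving it out is given for Ankrd2, for Fhl2 and for the count of genes called in cycD2 TAC against cycD2 sham. Xist, the RNA of the inactive X chromosome, had 2644 to 5787 counts in cycD2 TAC replicates 1 and 2 and all cycD2 Shunt libraries, against 4 to 13 in the others, and the Y-linked Ddx3y had the reverse pattern. The clock gene Arntl was above its counterpart Dbp in all cycD2 TAC libraries, cycD2 sham replicates 1 and 2 and WT replicates 1 to 3, and below it in the rest. Cell type markers and these features are given beside the results they touch.

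Promoter sequences are shown for Ankrd1, Ankrd23, Xirp2, Fhl1 and Fhl2, because they hold matches to elements bound by factors with known roles in load-responsive muscle genes. TEAD factors bind the M-CAT motif, serum response factor the CArG box and MEF2 factors the MEF2 box. Each line gives the 250 bases before a RefSeq gene start (GRCm38.p6), 5′ to 3′ on the gene's strand. Capitals mark matches to the M-CAT motif (CATTCC), the CArG box or the MEF2 box on either strand.
Ankrd1 promoter (chr19:36119845-36120094, minus strand): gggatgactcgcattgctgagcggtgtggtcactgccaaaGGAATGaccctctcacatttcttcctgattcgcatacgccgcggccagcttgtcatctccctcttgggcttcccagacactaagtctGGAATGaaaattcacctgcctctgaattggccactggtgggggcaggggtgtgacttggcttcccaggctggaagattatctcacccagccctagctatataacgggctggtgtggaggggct
Ankrd23 promoter (chr1:36535740-36535989, minus strand): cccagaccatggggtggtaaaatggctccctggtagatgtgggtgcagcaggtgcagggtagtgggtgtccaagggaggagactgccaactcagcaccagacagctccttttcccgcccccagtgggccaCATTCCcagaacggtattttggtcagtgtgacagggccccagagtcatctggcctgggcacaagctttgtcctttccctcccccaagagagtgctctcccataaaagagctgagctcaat
Xirp2 promoter (chr2:67445752-67446001, plus strand): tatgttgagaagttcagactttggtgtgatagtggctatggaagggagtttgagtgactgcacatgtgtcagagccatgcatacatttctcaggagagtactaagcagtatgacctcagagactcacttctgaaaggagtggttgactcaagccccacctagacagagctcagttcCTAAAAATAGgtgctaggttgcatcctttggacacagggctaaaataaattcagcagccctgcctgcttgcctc
Fhl1 promoter (chrX:56779433-56779682, plus strand): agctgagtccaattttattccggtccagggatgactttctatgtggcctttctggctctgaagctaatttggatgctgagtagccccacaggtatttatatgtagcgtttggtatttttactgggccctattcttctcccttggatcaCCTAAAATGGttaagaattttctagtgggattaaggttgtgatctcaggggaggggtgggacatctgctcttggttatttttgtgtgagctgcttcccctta
Fhl2 promoter (chr1:43196762-43197011, minus strand): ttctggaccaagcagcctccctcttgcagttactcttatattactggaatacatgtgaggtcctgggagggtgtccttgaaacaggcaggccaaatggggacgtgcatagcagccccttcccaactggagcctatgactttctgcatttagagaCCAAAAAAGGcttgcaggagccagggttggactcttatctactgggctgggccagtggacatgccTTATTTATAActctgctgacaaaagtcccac
Fhl2 promoter (chr1:43163962-43164211, minus strand): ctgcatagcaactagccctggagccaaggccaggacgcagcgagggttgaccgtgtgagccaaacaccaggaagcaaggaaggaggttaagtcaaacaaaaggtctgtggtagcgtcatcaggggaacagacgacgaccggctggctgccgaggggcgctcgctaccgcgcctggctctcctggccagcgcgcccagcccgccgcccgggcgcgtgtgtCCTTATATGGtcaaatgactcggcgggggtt

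RefSeq gave 13 windows of 300 bases (250 before the start and 50 from it) for 9 of the 10 genes, with none for Xirp1. Ankrd1 held 2 M-CAT matches, at -210 to -205 and -123 to -118 from its start, both on the opposite strand. Of the Ankrd23 starts, the one shown held a match at -120 to -115 and the other one at 37 to 42, beyond the bases before the start. M-CAT was found in 3 of the 13 windows, those of Ankrd1 and both of Ankrd23, and in 14.7% of all windows. Of the Fhl1 starts, the one shown held a CArG box at -102 to -93 and the other held none. Each Fhl2 start held one, at -96 to -87 and at -31 to -22. CArG boxes were in 3 of the 13 windows and in 1.6% of all windows, and the MEF2 box was in 2 of the 13 and in 3.2% of all. The MEF2 match of Xirp2 lay at -74 to -65, and that of Fhl2 at -31 to -22 from its farther start. AP-1 (TGANTCA) matched 1 of the 13 windows, that of Xirp2, and 7.8% of all windows. The motif AGATAA, for factors of the GATA family, matched 3 windows of the 13 and 11.2% of all, the E-box (CANNTG) 12 and 72.3%, and NKX2-5 (AAGTG) 5 and 46.4%. The E-box and the other motifs may overlap each other. Matches are letters in a window, and binding was not measured.

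**Figure D1:**
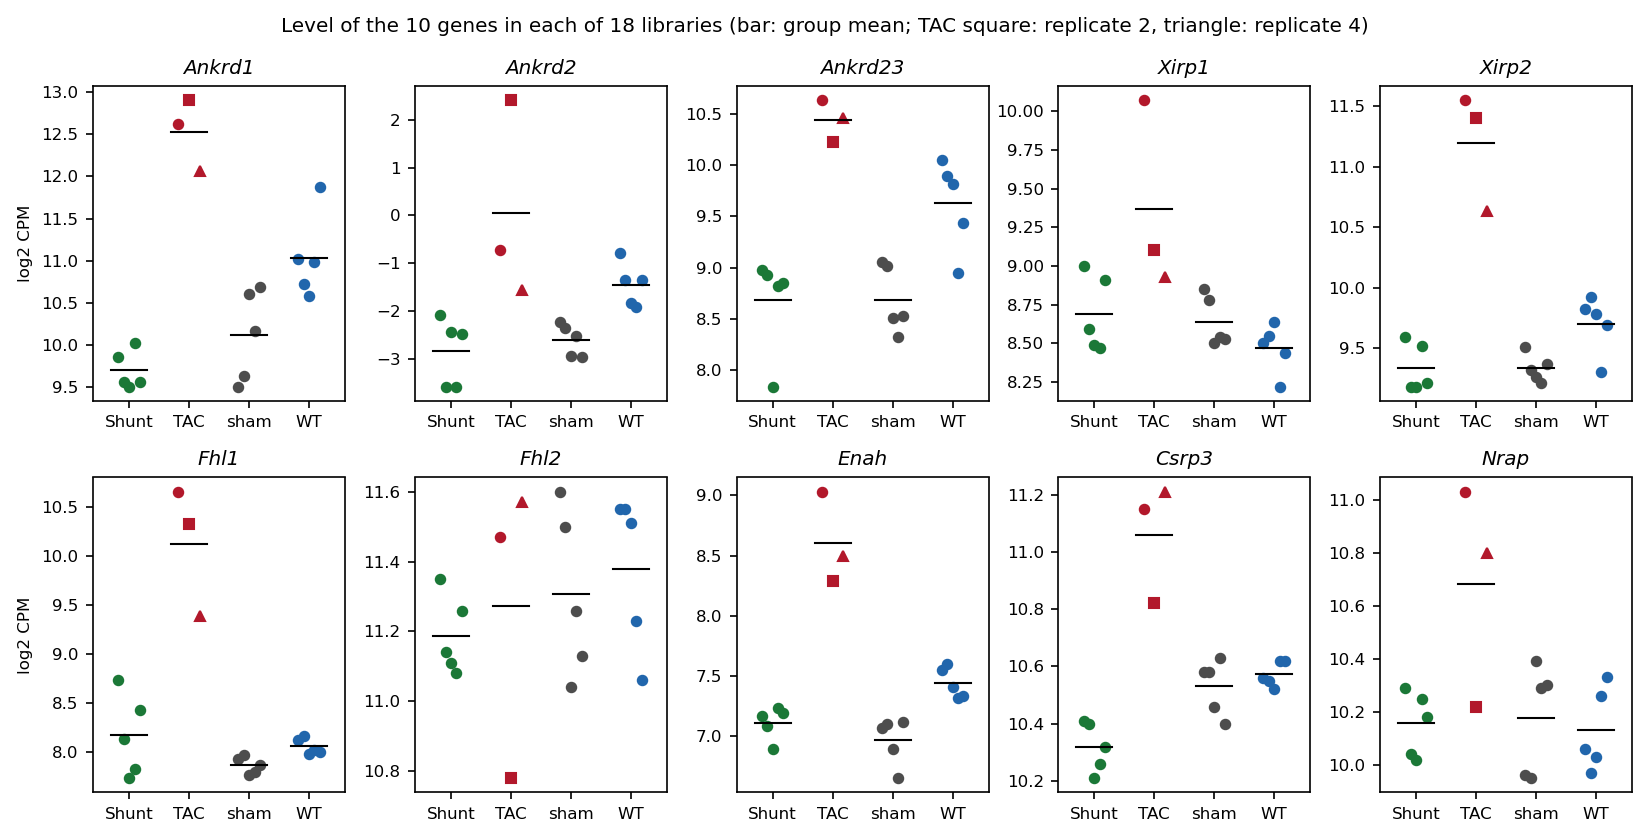
Level of each of the 10 genes in every library, in log2 CPM, with cycD2 Shunt, cycD2 TAC, cycD2 sham and WT from left to right. Points are libraries (in cycD2 TAC a square for replicate 2 and a triangle for replicate 4) and bars are group means; the cycD2 TAC points stand above the other groups for Ankrd1, Ankrd23, Xirp2, Fhl1 and Enah, while those of Fhl2 lie among the others.

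Pressure load in cycD2 TAC hearts, against cycD2 sham, went with higher RNA for 9 of the 10 genes, and Fhl2 was the exception. The rise was largest for Ankrd1, at 5.15-fold, and Fhl1, at 5.11-fold, among the genes with many reads. Xirp2, Ankrd23 and Enah rose more than 3-fold in this fit, which holds no term for clock phase. Csrp3 and Nrap rose by 1.45-fold each. Calls were made with edgeR's quasi-likelihood test where the p, adjusted by Benjamini-Hochberg, was under 0.05, and in this comparison 16.4% of all genes tested were called higher and 14.5% lower. A rise of at least 2-fold was called for 6 of the 10 genes and for 4.97% of all genes. Every cycD2 TAC library stood above every cycD2 sham library for 8 of the 10, against 14.5% of all genes. Each of these counts includes Ankrd2, with 6 to 133 reads in cycD2 TAC and 1 to 3 in cycD2 sham. The few libraries through which it passed the low-count filter are named below. The median log2 fold change was 1.70 over the 10 genes and 0.01 over all genes.

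Among the ankyrin repeat genes, Ankrd1 (ENSMUSG00000024803, chromosome 19, 36111961 to 36120099) had 6313, 7618 and 4268 CPM in cycD2 TAC replicates 1, 2 and 4, against 729, 794, 1558, 1154 and 1649 CPM in cycD2 sham. The lowest cycD2 TAC library was well above the highest sham library, although the spread within sham was itself wide. The log2 fold change was 2.37 ± 0.30 (SE; edgeR adjusted p = 5.09e-05). Ankrd23 (ENSMUSG00000067653, chromosome 1, 36530188 to 36536883), whose product is also known as the diabetes-related ankyrin repeat protein, had 1589.9, 1196 and 1404 CPM in cycD2 TAC and 528, 518, 365, 319.8 and 369.5 CPM in cycD2 sham. The groups were far apart, with a log2 fold change of 1.73 ± 0.25 (edgeR adjusted p = 1.21e-04). With a clock covariate the value of Ankrd23 was smaller, at 1.28 ± 0.20, and still called (edgeR adjusted p = 4.95e-04).

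Ankrd2 (ENSMUSG00000025172, chromosome 19, 42036000 to 42045110), the family member known mainly from skeletal muscle, was barely detected. It had 13, 133 and 6 reads in cycD2 TAC replicates 1, 2 and 4, and 3, 3, 1, 2 and 1 reads in cycD2 sham. The rise was called (log2 fold change 4.47 ± 0.84, edgeR adjusted p = 7.22e-04), but its size came from replicate 2, the library without raised Ccnd2. The ratio of summed counts, set against summed depth, was 25.0 (95% exact interval 13.2 to 53.1, counting error only) with all 3 libraries and 4.64 (2.05 to 11.2) without replicate 2. Ankrd2 passed the low-count filter through cycD2 TAC replicates 1 and 2 and WT replicate 1, and its values rest on few reads in every other library.

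Of the Xin genes, Xirp2 (ENSMUSG00000027022, chromosome 2, 67446002 to 67526614) had the larger fold change. It had 2999, 2710.2 and 1582 CPM in cycD2 TAC and 731, 640.5, 613, 594 and 660.2 CPM in cycD2 sham. All 3 cycD2 TAC libraries were far above the highest sham library, with a log2 fold change of 1.91 ± 0.17 (edgeR adjusted p = 2.44e-06). Xirp1 (ENSMUSG00000079243, chromosome 9, 120013755 to 120023598) had 1078, 548 and 487 CPM in cycD2 TAC and 462, 441, 361, 371 and 370.3 CPM in cycD2 sham. Replicates 2 and 4 stood only just above the sham libraries, and replicate 1 carried most of the log2 fold change of 0.81 ± 0.20 (edgeR adjusted p = 0.0050). Without replicate 1 the value was 0.37 and the call was lost (adjusted p = 0.0733). It was also lost with a clock covariate, at 0.64 (adjusted p = 0.0517).

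Of the LIM-only genes, Fhl1 was called and Fhl2 was not. Fhl1 (ENSMUSG00000023092, chromosome X, 56731787 to 56793346), whose product binds the titin spring and is needed in mice for a full hypertrophic response to pressure load, had 1614, 1285 and 671 CPM in cycD2 TAC and 244, 250.4, 217, 222 and 232 CPM in cycD2 sham. Sham libraries lay within a narrow band, and all cycD2 TAC libraries were far above it (log2 fold change 2.35 ± 0.22, edgeR adjusted p = 5.00e-06). Fhl2 (ENSMUSG00000008136, chromosome 1, 43123074 to 43196984), which also binds titin and restrains calcineurin signalling, had 2842, 1755 and 3035 CPM in cycD2 TAC and 3108, 2905, 2102, 2448 and 2236 CPM in cycD2 sham. The groups overlapped, and the log2 fold change was -0.01 with a 95% interval of -0.35 to 0.33 (edgeR adjusted p = 0.9734). In that fit, of all libraries and without a term for clock phase, a 1.5-fold change in either direction lay outside the interval. The sign of Fhl2 changed when cycD2 TAC replicate 2, or cycD2 sham replicate 1 or 2, was left out. Leaving out each library in turn gave -0.16 to 0.18. The clock covariate moved Fhl2 to -0.25 ± 0.15 (edgeR adjusted p = 0.2422). A fit of only those libraries where Arntl exceeded Dbp gave -0.25 ± 0.20 (0.4547). Intervals for these values are not given, so no statement on a 1.5-fold fall is made for the fits that take phase into account.

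Enah (ENSMUSG00000022995, chromosome 1, 181896384 to 182019990), which encodes Mena, had 524, 314 and 361 CPM in cycD2 TAC and 134, 137, 118, 100.1 and 139 CPM in cycD2 sham. Enah had the smallest p of the 10 genes in this comparison (log2 fold change 1.67 ± 0.14, edgeR adjusted p = 1.03e-06). With a clock covariate it was at 1.52 ± 0.15 (edgeR adjusted p = 1.42e-05). Csrp3 (ENSMUSG00000030470, chromosome 7, 48830398 to 48848033), the muscle LIM protein of the Z-disc, had 2268, 1806 and 2375 CPM in cycD2 TAC and 1532, 1532, 1405, 1579.5 and 1348 CPM in cycD2 sham, again without overlap (log2 fold change 0.54 ± 0.08, edgeR adjusted p = 1.23e-04). Nrap (ENSMUSG00000049134, chromosome 19, 56320035 to 56390037), a LIM and nebulin-repeat protein that anchors the ends of myofibrils, had 2089.9, 1194 and 1784 CPM in cycD2 TAC and 997, 987, 1344, 1252 and 1261 CPM in cycD2 sham. Replicate 2 lay within the sham range, and the log2 fold change of 0.53 ± 0.14 (edgeR adjusted p = 0.0095) was 0.35 without replicate 1 and no longer called (adjusted p = 0.0989).

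The cycD2 TAC libraries differed among themselves in the markers named above. Replicate 4 was the cycD2 TAC library that was like sham in Ccnd2 and in Y-linked genes. In it 9 of the 10 genes stood above every sham library, against 26.7% of all genes. Nrap was among them while Fhl2 was not, and Ankrd2 was among them with 6 reads against at most 3 in sham. A fit of this library alone with the sham and WT libraries called 5 of the 10 higher, against 3.36% of all genes. In it Ankrd1 had a log2 fold change of 1.85 (edgeR adjusted p = 0.0611), Fhl1 one of 1.52 (6.47e-06) and Xirp1 one of 0.27 (0.3458), and Ankrd2, at 1.51 (0.2611), and Nrap, at 0.60 (0.0520), were not called either, with the lone library assumed to vary like those of the other groups. Without replicate 2, the library with Ccnd2 near WT, 9 of the 10 were called, against 10.9% of all genes, with Ankrd2 at 2.10. Among the libraries with Arntl above Dbp, the 3 cycD2 TAC and 2 cycD2 sham libraries gave 7 called genes, against 5.61% of all genes. Ankrd1 was at 2.99 there, and the values of Xirp1, at 0.64 (edgeR adjusted p = 0.2166), and Ankrd2, at 4.00 (0.1379), were not called. That fit also held the WT libraries with Arntl above Dbp, which added to its estimate of spread.

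The share of reads outside annotated features was 13.64% to 14.86% in cycD2 TAC and 14.91% to 17.90% in cycD2 sham, without overlap. Markers of other cells also moved in this comparison. Of 6 fibroblast markers 5 rose, and their summed level was 2956 to 6280.2 CPM in cycD2 TAC, against 2065 to 3268 CPM in cycD2 sham. Of 6 endothelial markers 4 rose (summed level 1166 to 1296 CPM in cycD2 TAC and 853 to 1146 CPM in cycD2 sham), and 1 of 6 macrophage and 1 of 6 smooth muscle markers rose. Among 8 cardiomyocyte markers 2 rose and 5 fell, and their sum was 53263 to 77438 CPM in cycD2 TAC and 77926 to 91905 CPM in cycD2 sham. Of 6 atrial markers tested 1 rose, the load marker Nppa, and 2 fell, and of 7 skeletal muscle markers tested 1 rose, the skeletal actin Acta1, and 3 fell. The skeletal myosin Myh4 and the atrial Bmp10 had 3 counts or fewer in every library of both groups. The part of that share and of these shifts in the result was not tested, and in bulk tissue fewer cells of a type and less RNA per cell cannot be told apart.

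**Figure D2:**
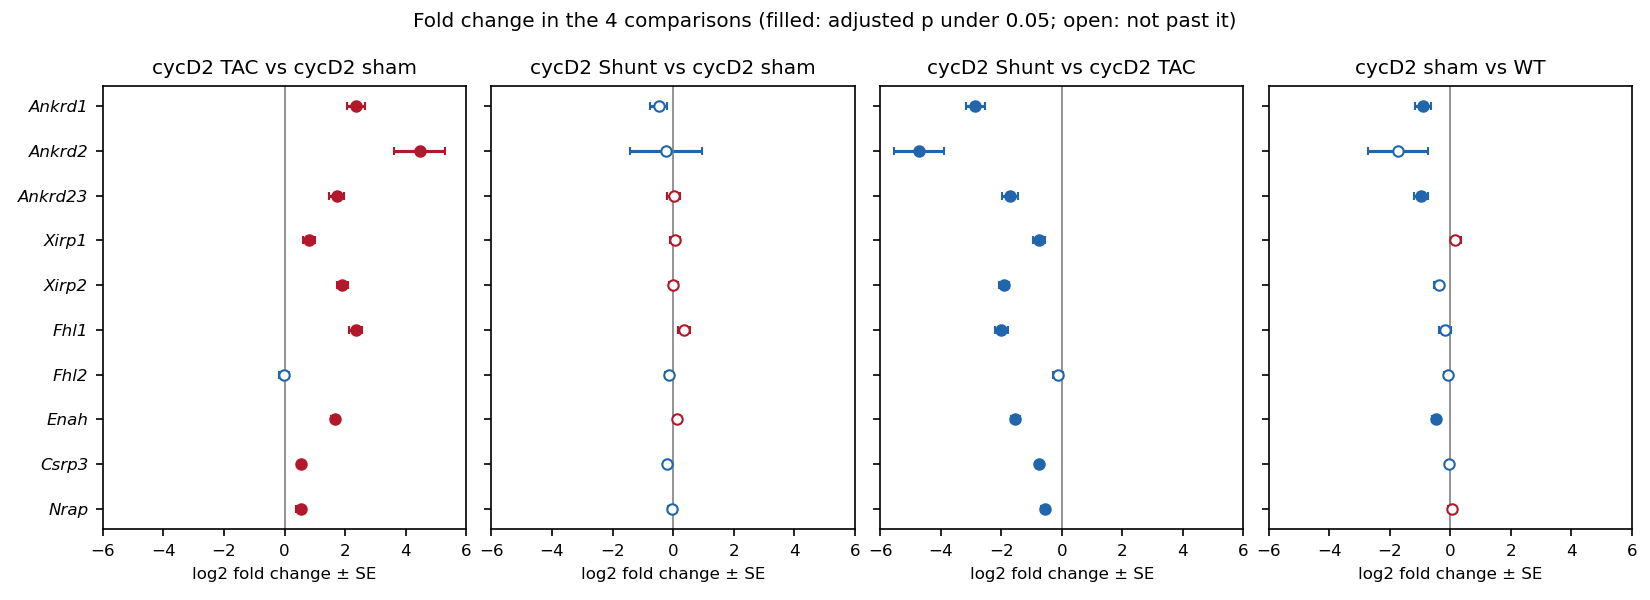
Log2 fold change of each of the 10 genes in the 4 comparisons, with bars of 1 SE; filled points are called and open ones are not. In cycD2 TAC against cycD2 sham 9 genes are called higher and Fhl2 stands at -0.01; in cycD2 Shunt against cycD2 sham none is called and all lie between -0.48 and 0.35.

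No such rise was called under volume load. None of the 10 genes was called in cycD2 Shunt against cycD2 sham by edgeR, DESeq2 or limma-voom. At an unadjusted p under 0.05, edgeR had 1 lower, Csrp3, and 0 higher. Only 0.242% of all genes tested were called in this comparison, so that a count of 0 is near the background. All 5 cycD2 Shunt libraries were Xist-high and all 5 sham libraries were not, and these features and the operation cannot be told apart. The groups overlapped for all 10 genes, and they did so for all but 4.09% of all genes tested.

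Ankrd1 had 929.6, 757, 728, 1046 and 755 CPM in cycD2 Shunt replicates 1 to 5. Those libraries lay within a narrower band than sham, at its lower end, with a log2 fold change of -0.48 ± 0.27 (95% interval -1.04 to 0.08, edgeR adjusted p = 0.4172). The 3 sham libraries that share the Dbp-high state of all cycD2 Shunt libraries held 1154 to 1649 CPM, all above cycD2 Shunt, and the value among Dbp-high libraries was -0.80 (adjusted p = 0.1080). Ankrd23 had 506, 487, 228, 451 and 462 CPM in cycD2 Shunt, where replicate 3 stood far below the rest, and its log2 fold change was 0.02 (95% interval -0.45 to 0.49). Ankrd2 had 4, 0, 3, 0 and 3 reads in cycD2 Shunt and 1 to 3 in sham. The log2 fold change of -0.24 had a 95% interval of -2.76 to 2.28, and changes inside it were not detectable at this depth.

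Xirp2 had 769, 579, 581, 735 and 591 CPM in cycD2 Shunt. Replicates 1 and 4 lay above every sham library and replicates 2, 3 and 5 below every one, with a log2 fold change of 0.01 (95% interval -0.30 to 0.32). Its interval excluded a change of the size seen in cycD2 TAC. Xirp1 had 513, 384, 360.1, 354 and 479.7 CPM in cycD2 Shunt, where replicates 1 and 5 lay above every sham library and replicates 3 and 4 just below all of them, for a log2 fold change of 0.06 (95% interval -0.31 to 0.43). Fhl1 had 424, 281, 213, 225 and 344 CPM in cycD2 Shunt. Replicates 1, 2 and 5 were above every sham library and replicates 3 and 4 were not, and the log2 fold change of 0.35 ± 0.20 was not called (edgeR adjusted p = 0.4198). Fhl1 lies on the X chromosome.

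Fhl2 had 2607, 2264, 2215, 2163 and 2455 CPM in cycD2 Shunt, within the sham range (log2 fold change -0.13, 95% interval -0.43 to 0.17). Nrap, at 1256, 1050.1, 1035, 1219 and 1163 CPM, also lay within the sham range, with a log2 fold change of -0.03. Enah had 144, 135, 118, 150.2 and 146 CPM in cycD2 Shunt, where replicates 1, 4 and 5 were above every sham library, and its log2 fold change of 0.14 ± 0.12 was not called (edgeR adjusted p = 0.6326). Csrp3, the gene with the unadjusted p of 0.0091, had 1357, 1351, 1182, 1224 and 1281 CPM in cycD2 Shunt. Replicates 1 and 2 reached just past the lowest sham library and the other libraries lay below all of sham, and the log2 fold change was -0.21 ± 0.07 (95% interval -0.36 to -0.06, edgeR adjusted p = 0.2085).

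**Figure D3:**
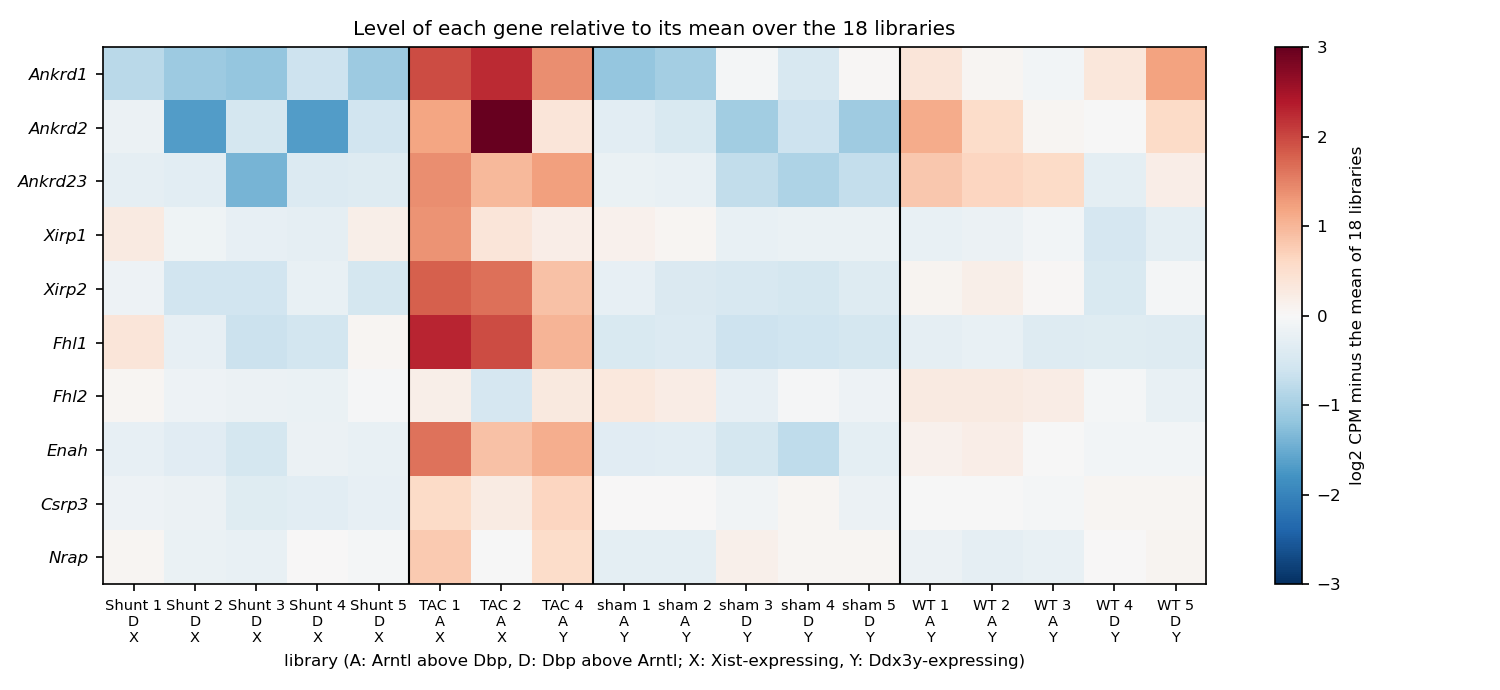
Log2 CPM of the 10 genes in each library, centred on its mean over the 18 libraries, with colour limited at 3 in either direction; letters under each library mark Arntl above Dbp (A) or the reverse (D), and Xist (X) or Ddx3y (Y) reads. The 3 cycD2 TAC columns stand out in the rows of Ankrd1, Ankrd23, Xirp2, Fhl1 and Enah, replicate 4 is paler there than replicates 1 and 2 for Ankrd1, Xirp2 and Fhl1, and the row of Fhl2 shows no such block.

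Set directly against each other, the loads differed for 9 of the 10 genes, all lower in cycD2 Shunt than in cycD2 TAC. In this comparison 13.6% of all genes tested were called lower and 13.3% higher. At least 2-fold falls were called for 6 of the 10 and for 3.70% of all genes, and the groups did not overlap, with cycD2 Shunt lower, for 7 of the 10 and 12.5% of all genes. Each of these counts includes Ankrd2, with 0 to 4 reads in cycD2 Shunt and 6 to 133 in cycD2 TAC. The median log2 fold change was -1.62 over the 10 genes and -0.01 over all genes. This comparison uses the same cycD2 TAC libraries as the one with sham, so that its count is not independent of that one. The 3 cycD2 TAC libraries were Arntl-high and the 5 cycD2 Shunt libraries Dbp-high, and load and clock phase cannot be told apart here. The share of reads outside annotated features was 15.03% to 19.87% in cycD2 Shunt and 13.64% to 14.86% in cycD2 TAC, again without overlap. Of 6 markers each, 4 fibroblast, 3 endothelial and 3 macrophage markers fell, and of 8 cardiomyocyte markers 4 rose and 2 fell. The part of that share and of the markers in the result was not tested.

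Ankrd1 averaged 843 ± 139 CPM in cycD2 Shunt and 6066 ± 1688 CPM in cycD2 TAC (SD, n = 5 and 3), a log2 fold change of -2.85 ± 0.30 (edgeR adjusted p = 2.27e-05). Xirp2 averaged 651 ± 93.1 CPM in cycD2 Shunt and 2430.4 ± 749 CPM in cycD2 TAC, a log2 fold change of -1.90 ± 0.17 (edgeR adjusted p = 2.40e-06). Fhl1 averaged 297 ± 87.9 CPM in cycD2 Shunt and 1190.3 ± 479 CPM in cycD2 TAC (edgeR adjusted p = 2.31e-05). Ankrd23, at -1.71 ± 0.25, and Enah, at -1.53 ± 0.14, also fell with separate groups (edgeR adjusted p = 2.13e-04 and 2.40e-06). With a clock covariate 8 of the 10 genes were called lower, against 7.08% of all genes. Ankrd23 was at -1.10 (edgeR adjusted p = 0.0045), and Xirp1, at -0.51 (0.1775), lost its call.

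Csrp3 fell without overlap between the groups, at -0.75 ± 0.08 (edgeR adjusted p = 1.39e-05). Ankrd2 was at -4.71 ± 0.83 with all libraries (6.52e-04) and at -2.35 without cycD2 TAC replicate 2 (0.0168). Xirp1 (-0.75 ± 0.20, edgeR adjusted p = 0.0095) and Nrap (-0.56 ± 0.14, 0.0081) were called although a cycD2 TAC library lay within the cycD2 Shunt range. Neither call held without cycD2 TAC replicate 1, where the values were -0.31 for Xirp1 (adjusted p = 0.1360) and -0.38 for Nrap (0.0772). Fhl2 was at -0.12 (95% interval -0.46 to 0.22). Among the Xist-high libraries, 5 cycD2 Shunt and 2 cycD2 TAC, 8 of the 10 were called lower, against 10.2% of all genes, and Nrap, at -0.52, was not (edgeR adjusted p = 0.0877).

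The transgene without load went with lower RNA for 3 of the 10 genes. Ankrd1, Ankrd23 and Enah fell in cycD2 sham against WT, and none rose by edgeR, DESeq2 or limma-voom, also at an unadjusted p under 0.05 in edgeR. The background was large, with 14.9% of all genes called lower and 13.5% higher. The median log2 fold change was -0.28 over the 10 genes and -0.01 over all genes. Besides the transgene, the sham operation separates these groups, and reads with no feature were 14.9% to 17.9% in cycD2 sham and more in every WT library, up to 22.8%. The part of this share in the result was not tested. Of the marker lists, 4 of 6 atrial markers tested rose and 1 fell, 4 of 7 skeletal muscle markers tested rose and 2 fell, 3 of 6 endothelial markers fell, and of 8 cardiomyocyte markers 1 rose and 1 fell. With the mean level of atrial markers as a covariate, Ankrd1 was at -0.87 and not called (adjusted p = 0.0745), while Ankrd23 and Enah were.

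Ankrd1 had 2070.1, 1686, 1526, 2028 and 3745 CPM in WT replicates 1 to 5. Sham replicates 3 and 5 reached into the lower end of that range, and the log2 fold change was -0.91 ± 0.27 (edgeR adjusted p = 0.0178). Without WT replicate 5, the highest, it was -0.63 and not called (adjusted p = 0.0538), and at a value of -0.90 it missed the threshold with no low-count filter (0.0509), with this pair fitted alone (0.0577) and among libraries alike in Y-linked genes (0.0634). Ankrd23 had 1062, 951, 897, 495 and 689.8 CPM in WT, where only replicate 4 lay below some sham libraries, with a log2 fold change of -0.96 ± 0.23 (edgeR adjusted p = 0.0045). Enah had 188, 194, 170.1, 159.6 and 160.5 CPM in WT, all above every sham library, with a log2 fold change of -0.47 ± 0.12 (edgeR adjusted p = 0.0071).

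Clock phase cut across both groups. The fits by phase also held the cycD2 TAC or cycD2 Shunt libraries of the same phase, which added to the estimate of spread. In the libraries with Arntl above Dbp, 2 cycD2 sham and 3 WT, the log2 fold changes were -1.20 for Ankrd1 (edgeR adjusted p = 0.0238), -0.88 for Ankrd23 (0.0107) and -0.43 for Enah (0.1784). In those with Dbp above Arntl, 3 cycD2 sham and 2 WT, they were -0.97 for Ankrd1 (adjusted p = 0.0351), -0.74 for Ankrd23 (0.1269) and -0.41 for Enah (0.0552). Directions held in both phases for these genes, and in both phases the call held for Ankrd1.

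Without a call, Ankrd2 and Fhl1 were also separate between the groups, as was Enah among the called genes, which makes 3 of 10 against 11.7% of all genes with sham below WT. Ankrd2 had 10, 6, 4, 4 and 7 reads in WT, for a log2 fold change of -1.73 ± 0.98 (edgeR adjusted p = 0.2036). Fhl1 had 217 to 250.4 CPM in cycD2 sham and 252 to 286 CPM in WT, a small gap with a log2 fold change of -0.19 ± 0.20 (adjusted p = 0.4990). Xirp2 had 594 to 731 CPM in cycD2 sham and 632 to 971 CPM in WT (-0.38 ± 0.15, adjusted p = 0.0619).

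Xirp1 had 361 to 462 CPM in cycD2 sham and 299 to 399 CPM in WT, for a log2 fold change of 0.17 ± 0.17 (adjusted p = 0.4975). Fhl2 had 2102 to 3108 CPM in cycD2 sham and 2132 to 3007 CPM in WT, at -0.07 (95% interval -0.37 to 0.22). Csrp3 had 1348 to 1579.5 CPM in cycD2 sham and 1471 to 1576 CPM in WT, at -0.04 (95% interval -0.19 to 0.11). Nrap had 987 to 1344 CPM in cycD2 sham and 1000.5 to 1289 CPM in WT, at 0.05 (95% interval -0.21 to 0.32). Against these WT ranges, the lowest cycD2 TAC library was above the highest WT library for Ankrd1, Ankrd23, Xirp1, Xirp2, Fhl1, Enah and Csrp3, which is 7 of the 10 against 13.9% of all genes, and no cycD2 TAC to WT test was made.

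Within the 10 libraries of WT and cycD2 sham, the genes split by clock phase. In a fit with group as a term, made after these values were seen, 5 libraries with Arntl above Dbp were set against 5 with Dbp above Arntl, and 5 of the 9 genes tested were called (16.3% of 14008 genes). Fhl2, the gene without a call in the comparisons of load, had 2905 to 3108 CPM in Arntl-high and 2102 to 2448 CPM in Dbp-high cycD2 sham libraries, and 2911 to 3007 CPM in Arntl-high and 2132 to 2403 CPM in Dbp-high WT libraries. Its log2 difference was 0.41 ± 0.06 (SE; edgeR adjusted p = 4.02e-04), with no overlap in either group. Ankrd23 was at 0.65 ± 0.09 (5.41e-04) and Xirp1 at 0.27 ± 0.05 (0.0038), again without overlap in either group.

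In the other direction, Nrap had 987 to 997 CPM in Arntl-high and 1252 to 1344 CPM in Dbp-high cycD2 sham libraries, and 1000.5 to 1069 CPM in Arntl-high and 1228 to 1289 CPM in Dbp-high WT libraries. Its log2 difference was -0.32 ± 0.05 (edgeR adjusted p = 5.97e-04). Ankrd1 was at -0.82 ± 0.19 (0.0201), with 729 to 794 CPM in Arntl-high and 1154 to 1649 CPM in Dbp-high cycD2 sham libraries. In WT its ranges overlapped, at 1526 to 2070.1 CPM in Arntl-high and 2028 to 3745 CPM in Dbp-high libraries. Xirp2 (0.24, edgeR adjusted p = 0.0520), Fhl1 (0.11, 0.1217), Enah (0.20, 0.0894) and Csrp3 (0.01, 0.9251) were not called, and Ankrd2 was not tested in this fit. The hour of collection is not given in the sources used here, and whether day of collection or handling went with the phase was not tested.

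**Figure D4:**
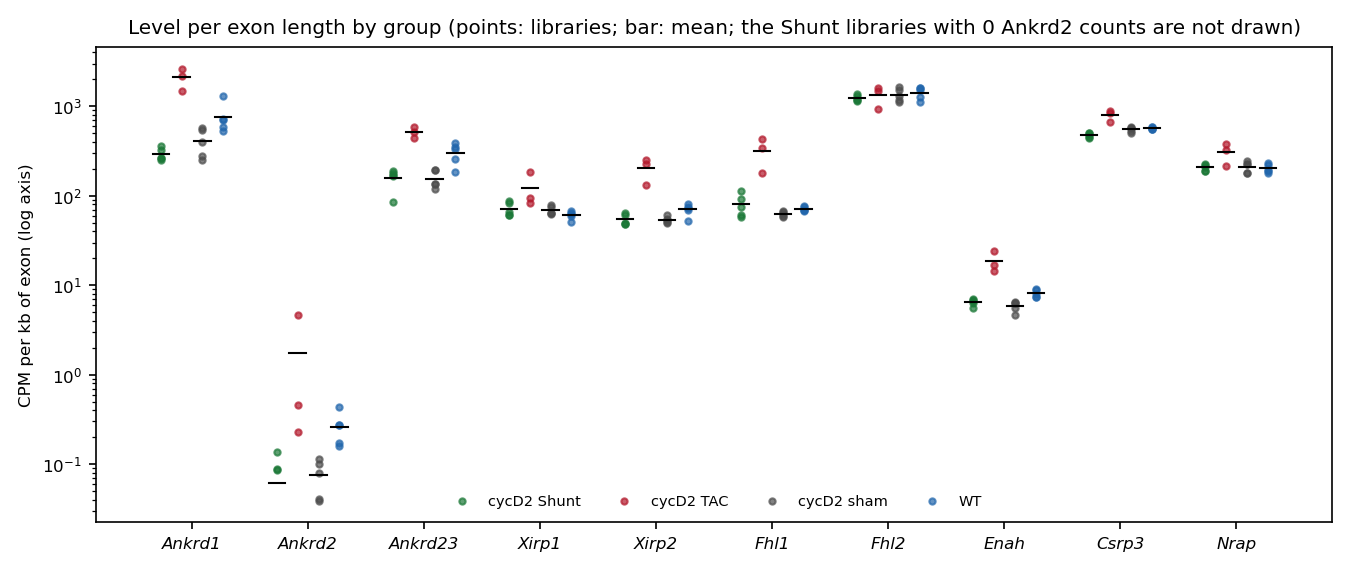
Level per length of each of the 10 genes, in CPM per kb of exon on a log axis; points are libraries, coloured by group, bars are group means, and libraries with 0 Ankrd2 counts are not drawn. By mean, Fhl2 is highest in cycD2 Shunt, cycD2 sham and WT, and Ankrd1 is highest in cycD2 TAC.

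Levels were compared between genes as CPM per kb of exon. Fhl2 was the most abundant of the 10 in 3 groups, at 1234 ± 97.7 in cycD2 Shunt, 1349 ± 228 in cycD2 sham and 1419 ± 211 in WT (SD, n = 5 each). In cycD2 TAC Fhl2 had 1341 ± 364 and Ankrd1 2102 ± 585 CPM per kb (n = 3), so that Ankrd1 moved to the top. In cycD2 TAC replicate 4 Fhl2 was still the higher, at 1599.9 against 1479 for Ankrd1, so that the order of these neighbours was not the same in all 3 libraries. Elsewhere Ankrd1 had 292 ± 48.2 in cycD2 Shunt, 408 ± 147 in cycD2 sham and 766 ± 308 CPM per kb in WT. Csrp3 had 479 ± 28.9 in cycD2 Shunt, 805 ± 113 in cycD2 TAC, 554 ± 36.7 in cycD2 sham and 571 ± 17.0 CPM per kb in WT. Nrap and Ankrd23 followed, and in cycD2 TAC Fhl1, at 320.5 ± 129, lay beside Nrap, at 307 ± 82.7. Xirp1, Xirp2 and Fhl1 were close together outside cycD2 TAC, with group means of 54.1 to 80.0 CPM per kb. Enah had 18.6 ± 5.13 in cycD2 TAC and 5.86 ± 0.770 in cycD2 sham, and its annotated exons span 21452 bases, which lowers its value per kb. Ankrd2 was lowest, at 1.76 ± 2.47 in cycD2 TAC and 0.0748 ± 0.0344 in cycD2 sham.

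Likeness of profiles was measured over the 18 libraries as the root mean square difference of log2 CPM after centring each gene on its mean, and the libraries share groups, phase and depth. Csrp3 and Nrap were nearest to each other, at 0.20, and so were Xirp2 and Enah, at 0.24. Fhl1 was nearest to Xirp2, at 0.32, Ankrd23 to Enah, at 0.36, and Ankrd1 to Xirp2, at 0.58. Xirp1 was nearest to Nrap, at 0.31, Fhl2 to Csrp3, at 0.29, and Ankrd2 to Ankrd1, at 0.86. Among 13609 protein-coding genes, those nearest to Ankrd1 were Cnksr1 (0.52), Tmem200a (0.56), Xirp2 (0.58), Cpxm1 (0.58) and Pdzd3 (0.60).

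Lists of related genes were counted in the same way. Of all genes tested, 16.4% were called higher and 14.5% lower in cycD2 TAC against cycD2 sham. In cycD2 TAC against cycD2 sham, 10 of 22 titin and Z-disc partners rose and 1 fell, with a median log2 fold change of 0.32. Synpo2l, a Z-disc protein, rose by 1.86 ± 0.25 (edgeR adjusted p = 6.24e-05), filamin C (Flnc) by 1.10 ± 0.13 (1.80e-05) and Pdlim5, another LIM protein of the Z-disc, by 1.10 ± 0.16 (9.55e-05), while the titin cap Tcap was at -1.81 ± 0.57 (0.0252). Of 20 intercalated disc and costamere partners 7 rose and 2 fell (median 0.16). Desmin (Des), the intermediate filament of muscle, was at 0.90 ± 0.11 (edgeR adjusted p = 2.39e-05), talin 1 (Tln1) at 0.52 ± 0.07, plakophilin 2 (Pkp2) at 0.42 ± 0.07, alpha-catenin (Ctnna1) at -0.42 ± 0.06 and talin 2 (Tln2) at -0.32 ± 0.08. Of 8 relatives of the 10 genes' families 4 rose and 1 fell (median 0.34). Vasp, the family partner of Enah, was at 0.55 ± 0.12 (edgeR adjusted p = 0.0022) and nebulette (Nebl), related to Nrap, at -0.50 ± 0.12 (0.0045).

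Of 23 genes of the YAP-TEAD and serum response factor axis, 11 rose and 0 fell in cycD2 TAC against cycD2 sham (median 0.34); at an unadjusted p under 0.05 edgeR had 1 lower, and DESeq2 and limma-voom called 0 lower. Ccn2, a secreted matrix protein and a known YAP target, had the largest value of those named, 3.49 ± 0.54 (edgeR adjusted p = 2.71e-04), with Ccn1 at 1.24 ± 0.20 (2.14e-04) and Wwtr1, which encodes the co-activator TAZ, at 0.41 ± 0.09 (0.0020). In cycD2 Shunt against cycD2 sham, edgeR, DESeq2 and limma-voom called 0 genes of these 4 lists, and edgeR's unadjusted p was under 0.05 for 4 higher and 4 lower. There edgeR called only 0.242% of all genes tested. In cycD2 Shunt against cycD2 TAC, 12 of the 22 titin and Z-disc partners fell and 2 rose, with Synpo2l at -1.78 ± 0.25 and Tcap at 1.64 ± 0.56. The counts lower and higher there were 5 and 3 for the disc and costamere list, 4 and 1 for the relatives and 8 and 1 for the YAP-TEAD and serum response factor axis. Of all genes tested, 13.6% were called lower and 13.3% higher in that comparison.

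In cycD2 sham against WT the lists split, with 5 titin and Z-disc partners lower and 2 higher, 3 and 3 in the disc and costamere list, 0 and 3 among the relatives and 2 and 2 in the YAP-TEAD list. The muscle protease Capn3, which binds titin, was at -1.46 ± 0.27 (edgeR adjusted p = 7.35e-04) and Pdlim5 at -0.74 ± 0.14 (0.0010), while Pdlim3 was at 0.84 ± 0.24 (0.0174) and Csrp2, a relative of Csrp3, at 0.94 ± 0.14 (1.52e-04). The YAP target Ccn1 was at -0.68 ± 0.18 (0.0080). Over all genes tested, 14.9% were called lower and 13.5% higher.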

How the data were processed

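Left-ventricle RNA of 18 libraries was made into libraries with a TruSeq v2 kit, per the labels' protocols; that kit keeps no strand. The authors deposited unnormalised read counts for each Ensembl gene. The submitters' processing notes name STAR 2.3.0e and HTSeq 0.6.1p1, besides CASAVA 1.8.2, FastQC, SAMtools 0.1.19 and DESeq2 1.8, and the builds GRCm38 and mm10; the annotation release and strand setting are not given in the sources used here. GENCODE M21 supplied names and positions for 36602 of 38355 identifiers.

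Genes were kept by filterByExpr (minimum count 10), leaving 14876, scaled by TMM and tested with edgeR 4.0.16 in R 4.3.3 (quasi-likelihood F test, 1 mean per group, all 18 libraries, 14 residual degrees of freedom, Benjamini-Hochberg adjusted p under 0.05). The SE was taken as the fold change's size divided by the root of F. On simulated counts 73.0% (cycD2 Shunt against cycD2 TAC, 14700 genes) to 80.0% (cycD2 Shunt against cycD2 sham, 14712 genes) of 200 genes changed 2-fold were recovered. Levels are TMM-scaled CPM, and profiles used log2 CPM with a prior count of 2. Exons of Ankrd23 overlap those of Gm42417, which was not used here, those of Xirp2 the antisense Gm13601, and those of Nrap the genes Habp2 and Gm17197; without strand their shared reads cannot be told apart. Reads with no feature, 13.6% to 22.8%, stayed out of the library sizes. Replicate pairs of a group differed by at least 7.08 chi-square units per gene, so that no library repeated another of its group. Libraries of different groups were not compared in this way. Residuals of same-numbered cycD2 TAC and cycD2 sham libraries correlated at 0.129, 0.151 and 0.157. Only cycD2 TAC replicate 4 was most like the sham library of its own number. Between cycD2 Shunt and cycD2 TAC, however, replicates 1, 2 and 4 were each most like their own number (0.17, 0.139 and 0.0928). The labels state no pairs. The numbers were therefore not taken as pairs.

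Alternatives were DESeq2 1.42.0, limma-voom 3.58.1, other scalings and filters, a replicate block, covariates (Y-linked genes, clock phase, atrial markers), subsets of libraries and leaving out each library. The genes, lists and alternatives were chosen with earlier results of these data known. All 10 genes are named; from each list up to 3 called rises and 3 called falls by smallest p, and the 5 genes nearest to Ankrd1, could be named, and the text gives some of them.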

Additional observations from a re-analysis of the deposited data

Results flagged for a closer look

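Of 30 sets of 5 libraries (10 genes in cycD2 Shunt, cycD2 sham and WT), 2 held a library far from its group, where chance alone gives about 1 in 20. Ankrd1 in WT replicate 5 was at 3745.3 CPM, with the next library at 2070.1 and the lowest at 1525.6 CPM (gap over range 0.755, against a critical value of 0.710). Ankrd23 in cycD2 Shunt replicate 3 was at 228.3 CPM, with the next library at 450.8 and the highest at 505.6 CPM (gap over range 0.802). The effect of WT replicate 5 on the cycD2 sham to WT value of Ankrd1 is given above, and without cycD2 Shunt replicate 3 the value of Ankrd23 in cycD2 Shunt against cycD2 sham was 0.18.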

How the results depend on the processing

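Over all settings other than leaving out a library, 450 of 500 values kept their direction and their side of the threshold, 22 lost a call, 7 gained one and 21 changed sign. When each library was left out in turn, 683 of 716 did so, 5 lost a call, 4 gained one and 24 changed sign. Counts of genes called lay between 7 and 9 in cycD2 TAC against cycD2 sham (higher), 7 and 9 in cycD2 Shunt against cycD2 TAC (lower) and 2 and 4 in cycD2 sham against WT (lower) when a library was left out. DESeq2, limma-voom and both other scalings gave 9, 9 and 3. The count in cycD2 TAC against cycD2 sham was 5 among libraries alike in Y-linked genes and 6 with a Y-linked covariate (1.93% of all genes called higher). The count in cycD2 sham against WT was 1 among libraries with Dbp above Arntl (5.82% of all genes called lower) and 5 among libraries alike in Y-linked genes (15.4%), where Ankrd2, Xirp2 and Fhl1 gained a call and Ankrd1 lost it (-0.90, edgeR adjusted p = 0.0634). With each pair fitted alone, Nrap missed the threshold in cycD2 TAC against cycD2 sham (0.53, edgeR adjusted p = 0.0532) and Xirp1 in cycD2 Shunt against cycD2 TAC (-0.75, 0.0647). Ankrd2 was not tested in those fits. The Y-linked covariate ended the calls of Ankrd2 (1.52, 0.5836), Xirp1 (0.28, 0.6348) and Nrap (0.62, 0.1355) in cycD2 TAC against cycD2 sham and of Nrap (-0.50, 0.0596) in cycD2 Shunt against cycD2 TAC.

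The replicate block, taken as pairing for cycD2 TAC and cycD2 sham, changed no call there (9 genes). Between cycD2 sham and WT, only replicates 2 and 4 were most like their own number, and correlations were -0.132 to 0.303. There the block gave 4 lower genes, with Xirp2 at -0.37 (edgeR adjusted p = 0.0378). Correlations were -0.264 to 0.318 between cycD2 Shunt and cycD2 sham and 0.0928 to 0.170 between cycD2 Shunt and cycD2 TAC, and the block changed no count there.

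Values that changed sign were log2 fold changes of genes without a call. In cycD2 sham against WT these were Fhl2 (0.02 with the clock covariate, 0.03 Arntl-high, 0.01 Dbp-high), Csrp3 (0.05 Arntl-high) and Nrap (-0.03 with the clock covariate, -0.05 Arntl-high). In cycD2 TAC against cycD2 sham, Fhl2 was at 0.26 with the Y-linked covariate and 0.24 among libraries alike in Y-linked genes. In cycD2 Shunt against cycD2 sham, the Y-linked covariate, which follows these groups, gave Xirp1 -0.77, Xirp2 -0.94, Fhl1 -0.88, Fhl2 0.35, Enah -0.10, Csrp3 0.05 and Nrap 0.11. There limma-voom gave Ankrd23 -0.00038, the stricter filter Xirp2 -0.0017 and the Dbp-high libraries Fhl2 0.04. In cycD2 Shunt against cycD2 TAC, Fhl2 was at 0.09 with the Y-linked covariate, 0.22 with the clock covariate and 0.03 among libraries alike in Y-linked genes. The cause was not tested.

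Leaving out a library gave Nrap -0.0028 to 0.13 in cycD2 sham against WT, and Fhl2 -0.16 to 0.18 in cycD2 TAC against cycD2 sham and -0.32 to 0.03 in cycD2 Shunt against cycD2 TAC. In cycD2 Shunt against cycD2 sham it gave Ankrd2 -0.65 to 0.05, Ankrd23 -0.07 to 0.18, Xirp1 -0.02 to 0.11, Xirp2 -0.06 to 0.05 and Nrap -0.10 to 0.03. Without WT replicate 1, and under the stricter filter, Ankrd2 had too few counts to be tested. It was also not tested with each pair fitted alone or among libraries with Dbp above Arntl. Depth limits Ankrd2 alone among the 10 genes.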
